A study of Sus scrofa with 12 samples.

Results

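Spheroids of porcine oviduct epithelial cells formed in incubation medium were compared with spheroids formed in DMEM/F12, across all genes measured by 3′ mRNA sequencing. The comparison took 8 of the 12 libraries of the series, 4 per medium, chosen by the medium that each sample's treatment label names. The other 4 libraries are epithelial cells taken by scraping and lysed without culture as single cells, called fresh cells here; their values are given beside those of the spheroids for orientation only. All 12 libraries came from oviduct of the pig (Sus scrofa) and are labelled as epithelial cells. The titles of the DMEM/F12 spheroids include FBS and those of the incubation medium spheroids include Diff. The labels used here explain neither word and give no composition for either medium, no culture time, and no breed, age or oestrous stage of the animals. Nothing in the labels says that same-group libraries came from separate animals or cultures, so p-values measure only the spread between these libraries, which may be technical.

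The oviduct epithelium consists of multiciliated cells, which move the gametes and the embryo, and of secretory cells, which make oviductin (OVGP1) and other proteins of the oviduct fluid. A spheroid is a 3-dimensional cluster of cells held together by cell contacts, and in culture its cells depend on the medium for sugars, amino acids, lipids, hormones, growth factors and vitamins such as retinol. Cells answer these supplies through known transcriptional programmes: retinoic acid receptors switch on the enzymes that clear retinoic acid, ATF4 switches on amino acid synthesis and uptake, SREBP2 drives cholesterol synthesis, and the zinc sensor MTF1 switches on metallothioneins and zinc exporters.

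The DMEM/F12 libraries held 7583552 to 8068187 counts and the incubation medium libraries 7585780 to 8603774, which did not separate the media (two-sided exact permutation p = 0.4286, where 0.0286 is the smallest possible with 4 against 4). Rows above 0 numbered 18830 ± 258 (SD, n = 4) in DMEM/F12 and 18522 ± 146 in incubation medium (exact permutation p = 0.0571). The 10 most abundant rows held 7.82% ± 0.380 (SD, n = 4) of the counts in DMEM/F12 and 8.94% ± 0.487 in incubation medium, with no overlap between the groups (exact permutation p = 0.0286). Counts of same-medium libraries differed beyond sampling noise in every pair, with a chi-square of 5.44 to 15.5 for each degree of freedom. Values below are CPM, read counts scaled to a common library size after TMM adjustment (trimmed mean of M-values), listed for replicates 1 to 4 of each medium. The TMM factors were 1.040 ± 0.031 (SD, n = 4) in DMEM/F12 and 0.975 ± 0.015 in incubation medium, without overlap (exact permutation p = 0.0286). Fold changes are incubation medium minus DMEM/F12 on the log2 scale. Calls were made with edgeR's quasi-likelihood test at an adjusted p under 0.05, by Benjamini-Hochberg over all tested genes. The replicate block, named below where it changes a call, is the same fit with the replicate number as a further term; it called 32.8% of genes, 16.6% higher and 16.2% lower.

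The media separated on the first principal component, which held 44.0% of the variance of the 8 spheroid libraries, and the replicate number followed the second, which held 18.2%. Same-numbered libraries of both media lay beside each other on that second component, with replicate 3 at one end and replicate 1 at the other.

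**Figure D1:**
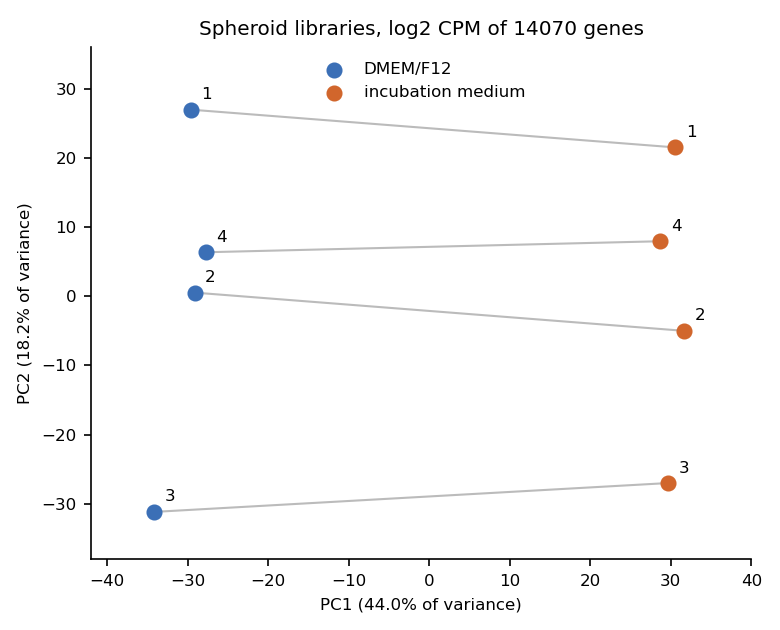
First and second principal components of log2 CPM over 14070 tested genes in the 8 spheroid libraries; points are libraries, colours are media, numbers are replicates, and grey lines join same-numbered libraries. The first component (44.0% of the variance) separates the media and the second (18.2%) orders the replicate numbers alike in both.

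Of 14070 genes tested, 3522 were called (25.0%): 1791 were higher in incubation medium (12.7%) and 1731 were lower (12.3%). A change of at least 2-fold among the called genes was less common, with 290 genes higher (2.06%) and 476 lower (3.38%). With library totals in place of TMM scaling the split was 1239 higher and 2471 lower, so that 33.4% of the calls were rises against 50.9% with TMM. The groups did not overlap for 3785 genes (26.9%), and 3035 of these were called. The median fold change over all tested genes was -0.0035 and the median of its size was 0.25, which is the background against which the lists below are read. Counts called in a list are likewise read against the 12.7% of all genes called higher and the 12.3% called lower. The share called grew with abundance, from 12.3% of 3435 genes with a mean under 5 CPM to 43.4% of 1745 genes at 100 CPM or more. Among biotypes, 26.2% of 12765 protein-coding genes and 13.1% of 998 long noncoding RNA genes were called, the latter with 49 higher and 82 lower.

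**Figure D2:**
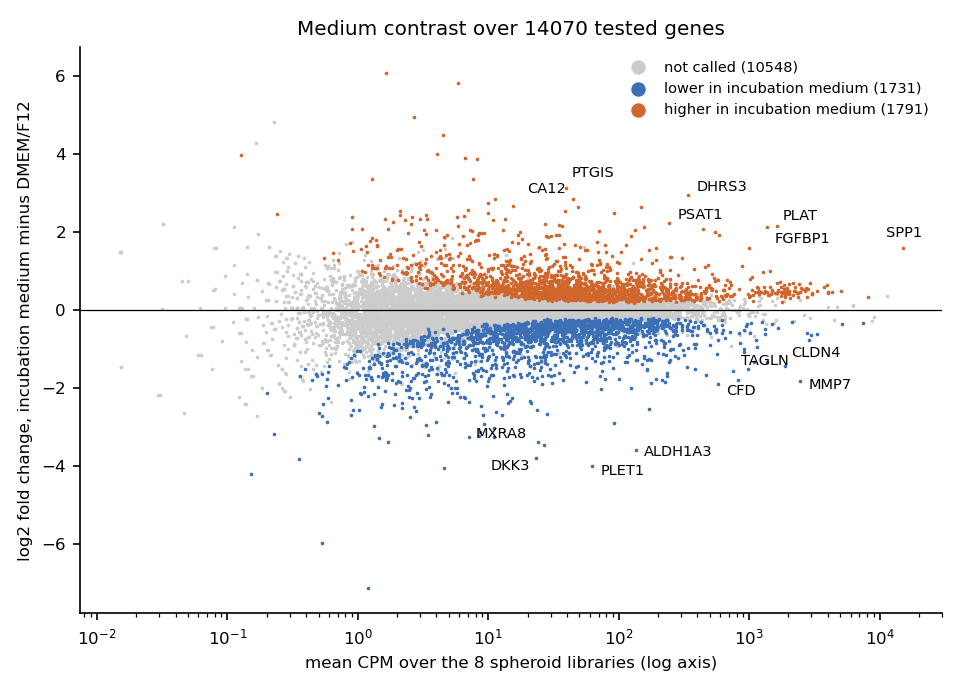
Log2 fold change of incubation medium minus DMEM/F12 against the mean CPM of the 8 spheroid libraries (log axis) for 14070 tested genes; orange points were called higher, blue points were called lower and grey points were not called at an adjusted p of 0.05. The called genes split into 1791 rises and 1731 falls, and SPP1 is the most abundant gene among the rises.

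Among genes with a symbol, the largest rises with no overlap at a mean of at least 20 CPM included genes of prostaglandin, retinoid, acid-base and amino acid metabolism. PTGIS, prostacyclin synthase, stood at 4.62, 11.3, 3.97 and 11.8 CPM in DMEM/F12 and at 22.4, 89.7, 57.5 and 113 CPM in incubation medium. It rose by 3.14 (SE 0.46, adjusted p = 0.000262), and each incubation medium library exceeded every DMEM/F12 library. DHRS3, a retinal reductase, went from 83.6, 74.1, 54.2 and 101 CPM to 677, 555, 581 and 605 CPM, a rise of 2.95 (SE 0.15, adjusted p = 7.4e-08). Its 4 incubation medium values lay close together and far above the others. CA12, a membrane carbonic anhydrase, stood at 18.5, 7.09, 6.75 and 11.4 CPM against 83.5, 61.5, 70.8 and 98.6 CPM and rose by 2.84 (SE 0.29, adjusted p = 1.44e-05). PLAT, tissue plasminogen activator, was the most sharply separated of these genes. Its values were 575, 685, 596 and 538 CPM in DMEM/F12 and 2688, 2524, 2751 and 2682 CPM in incubation medium, a rise of 2.15 (SE 0.09, adjusted p = 1.16e-08). FGFBP1, which releases fibroblast growth factors from the matrix, rose by 2.14 (SE 0.34, adjusted p = 0.000472) from 723, 334, 395 and 568 CPM to 2578, 1604, 2478 and 2227 CPM. ENPP3, an ectonucleotidase, rose by 2.19 (adjusted p = 0.000275), and MAL, a lipid raft protein of apical membranes, by 2.01 (adjusted p = 0.000337). The other members of the 12 largest rises among genes with a symbol were ANGPTL4, PSAT1, ATF5, FABP3 and CXCL8, which are described with their pathways.

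The largest falls, chosen by the same rule, included surface, matrix and retinoid genes. PLET1, a surface protein of placental and other epithelial progenitors, stood at 46.8, 122, 192 and 110 CPM in DMEM/F12 and at 2.03, 6.41, 11.8 and 9.0 CPM in incubation medium. It fell by 4.01 on the log2 scale (SE 0.43, adjusted p = 2.06e-05) with no overlap, and fresh cells held 0.276 ± 0.105 CPM (SD, n = 4). CD24, a glycosylated surface protein of epithelial cells, fell by 2.54 (SE 0.22, adjusted p = 5.19e-06) from 269, 247, 435 and 221 CPM to 45.3, 55.8, 67.4 and 33.3 CPM. CFD, complement factor D, showed the narrowest spread of these genes. It went from 892, 863, 1072 and 807 CPM to 247, 226, 251 and 246 CPM, a fall of 1.91 on the log2 scale (SE 0.11, adjusted p = 1.45e-07). SOD3, the extracellular superoxide dismutase, fell by 2.89 (SE 0.40, adjusted p = 0.000161) from 277, 127, 84.2 and 163 CPM to 17.1, 15.1, 19.4 and 36.4 CPM. DPYSL3, a cytoskeletal regulator, fell by 2.32 (adjusted p = 1.38e-05), and ARID5A, an RNA-binding regulator of inflammatory transcripts, fell by 1.88 (adjusted p = 5.19e-06). The gene listed as UABP-2 fell by 3.45 (SE 0.61, adjusted p = 0.000917), but DMEM/F12 replicate 1 alone held 118 CPM against 12.1, 36.9 and 29.7 CPM in the others. Without that library its fold change was -2.54 (adjusted p = 0.000936). ALDH1A3, DKK3, MXRA8, MGP and CSF2 complete the 12 largest falls among genes with a symbol.

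**Figure D3:**
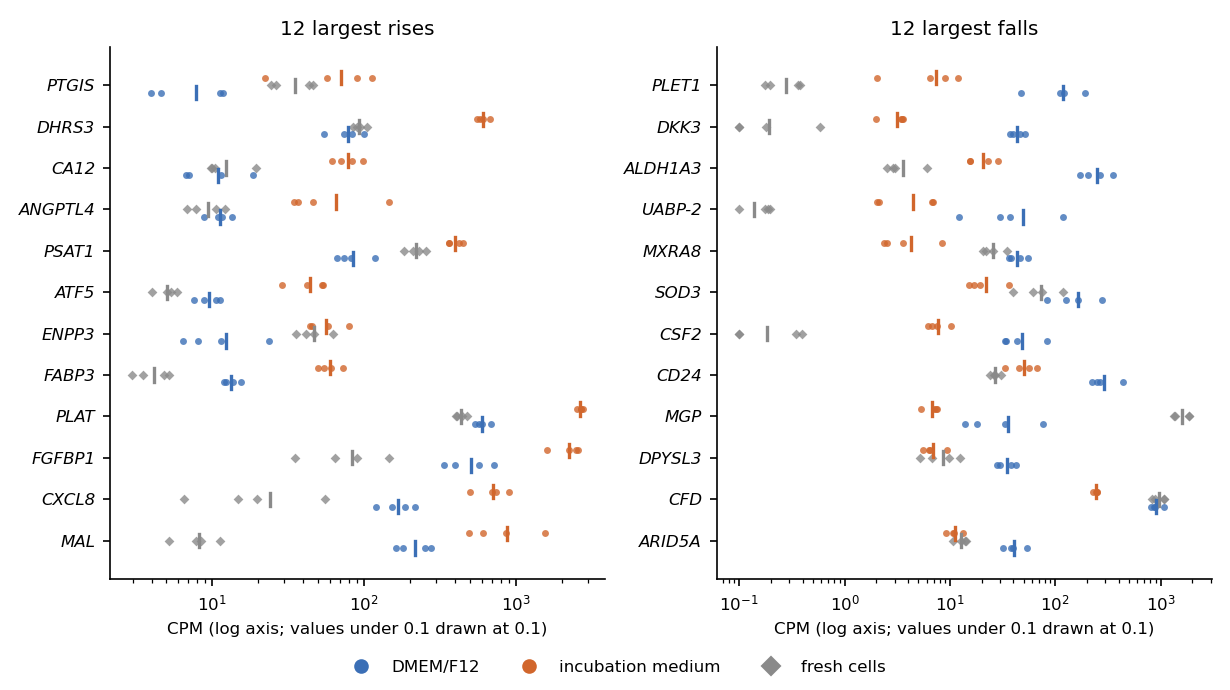
CPM (log axis) of the 12 genes with a symbol that had the largest rises and the 12 with the largest falls; each circle is a spheroid library, each grey diamond a fresh cell library, and vertical bars mark group means. The spheroid groups do not overlap for any of the 24 genes, which the choice of genes required, and PTGIS and PLET1 head the panels.

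Of the called genes, the 5 of largest mean level in each direction follow. SPP1, which encodes the secreted adhesion protein osteopontin, stood at 8544, 7958, 4766 and 8729 CPM in DMEM/F12 and at 22196, 21728, 21594 and 25047 CPM in incubation medium, a rise of 1.59 (SE 0.17, adjusted p = 2.28e-05), where fresh cells held 2991 ± 523 CPM (SD, n = 4). The other 4 called rises of largest mean level were the translation genes EEF1A1, RPS12, RPLP0 and RPS2, which rose by 0.32 to 0.50. ANXA2, an annexin at the membrane, fell by 0.61 (adjusted p = 0.000537), LGALS3, the lectin galectin-3, fell by 0.64 (adjusted p = 0.000315), and TUBA1B, an alpha-tubulin, fell by 0.58 (adjusted p = 0.00659). TMSB4X, the actin-binding thymosin beta 4, fell by 0.34 (adjusted p = 0.0258) and NUPR1, a stress-induced chromatin protein, by 0.76 (adjusted p = 0.0413). Neither call was firm: TMSB4X was lost without DMEM/F12 replicate 3 or 4 or incubation medium replicate 1, 2 or 3 (adjusted p = 0.0665 to 0.0778), and NUPR1 without any library but DMEM/F12 replicate 3 and incubation medium replicate 1 (adjusted p = 0.0562 to 0.114). Some genes named here had counts that were not whole numbers in all 12 libraries (TUBA1B, MT2A, MT1A, CXCL2, CTSS and RPS23) or in at least 91.7% of them (AKR1C3, KRT15, RPL30, CD79A, MCL1 and FTL), so their reads were shared with other features and their levels are uncertain.

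**Figure D4:**
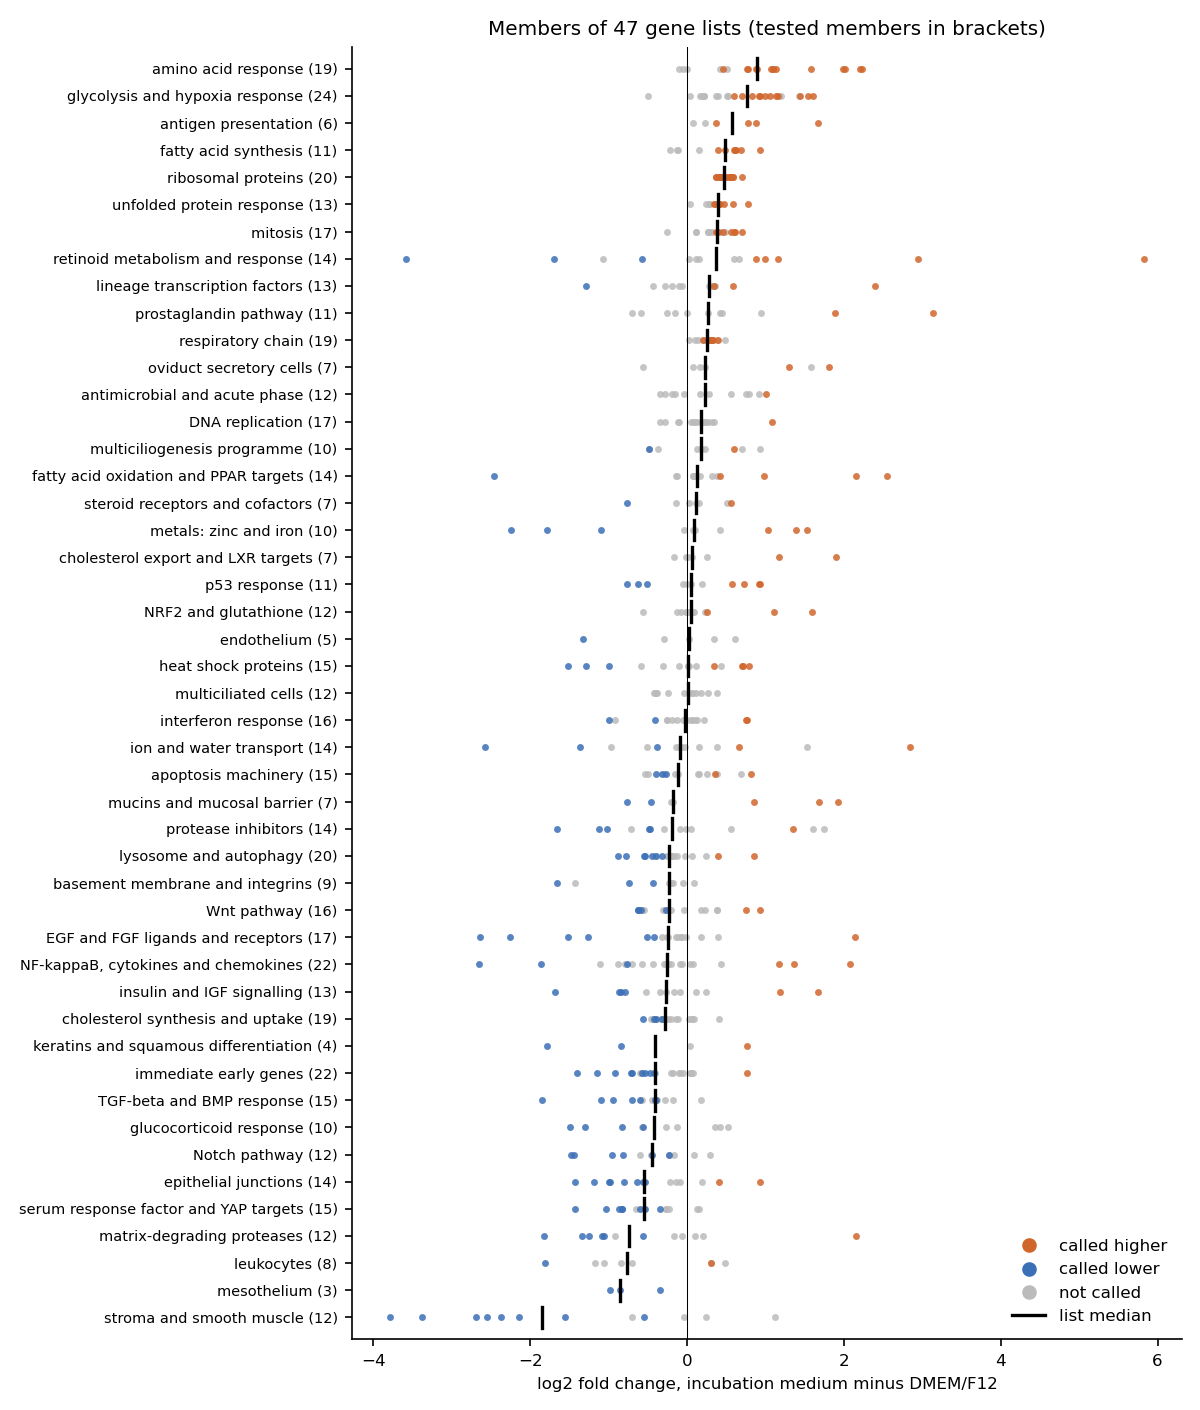
Log2 fold change of every tested member of 47 gene lists, ordered by list median (black bar), with the number of tested members in brackets; orange members were called higher, blue lower and grey not called. The amino acid response (median 0.89) and glycolysis (median 0.77) lists stand at the top and the stroma and smooth muscle list (median -1.85) at the bottom.

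Retinoid genes moved far in both directions. Retinol is carried by RBP4, oxidised in steps to retinoic acid by aldehyde dehydrogenases, and retinoic acid acts through RAR and RXR receptors and is cleared by CYP26 enzymes. Of 14 members tested, 5 were called higher and 3 lower (median 0.37), against 12.7% and 12.3% of all genes. CYP26B1, which clears retinoic acid, had at most 3 counts in any DMEM/F12 library, the floor that a count of 0 allows. It stood at 6.20, 8.14, 4.18 and 27.3 CPM in incubation medium, at least 31.2-fold above that floor (mean 11.4 CPM against a floor of 0.368 CPM averaged over the DMEM/F12 libraries), and was called (adjusted p = 0.000114). Incubation medium replicate 4 held the highest of these values, and without it the bound was at least 16.8-fold and the gene was still called (adjusted p = 3.48e-05). DHRS3, which turns retinal back to retinol, rose as given above. RARB, a retinoic acid receptor that is itself a classical target of retinoic acid, stood at 27.1, 23.1, 14.6 and 30.3 CPM against 66.8, 51.7, 43.3 and 51.0 CPM. It rose by 1.16 (SE 0.18, adjusted p = 0.00041), and RARG, its relative, by 0.88 (adjusted p = 0.0014). The retinaldehyde dehydrogenases diverged. ALDH1A1 rose by 0.99 (SE 0.12, adjusted p = 5.81e-05) from 1075, 735, 1045 and 975 CPM to 2094, 1708, 2159 and 1668 CPM. ALDH1A3 fell by 3.59 on the log2 scale (SE 0.26, adjusted p = 1.27e-06) from 355, 173, 268 and 205 CPM to 28.6, 15.6, 22.9 and 15.6 CPM, and ALDH1A2 was not called (0.15, adjusted p = 0.43). RBP4 fell by 1.70 (adjusted p = 0.0023) from 537, 366, 274 and 257 CPM to 113, 129, 114 and 85 CPM, and RXRA fell by 0.57 (adjusted p = 0.019).

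Markers of stromal and smooth muscle cells were lower in incubation medium. Of 12 tested members, 8 were called lower and 0 higher (median -1.85), where 12.3% of all genes were called lower; DES, POSTN and RGS5 did not pass the filter on low counts. The summed level of the list ran from 1601 to 1895 CPM in DMEM/F12 and from 539 to 907 CPM in incubation medium. TAGLN, the actin-binding protein transgelin and the most abundant member, stood at 1179, 1045, 1068 and 1187 CPM against 396, 371, 225 and 529 CPM and fell by 1.56 (SE 0.21, adjusted p = 0.000111). DKK3, a secreted glycoprotein of the Dickkopf family, fell by 3.79 on the log2 scale (SE 0.22, adjusted p = 1.9e-07) from 37.0, 39.5, 52.1 and 46.0 CPM to 3.58, 2.00, 3.45 and 3.49 CPM. MXRA8, a matrix-associated membrane protein, fell by 3.38 (SE 0.31, adjusted p = 6.84e-06) from 54.9, 37.6, 36.4 and 46.5 CPM to 2.39, 2.54, 3.57 and 8.46 CPM. For DKK3, fresh cells held 0.192 ± 0.277 CPM (SD, n = 4), and for MXRA8 25.8 ± 6.56 CPM.

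COL1A1, a chain of collagen I, stood at 28.5, 22.0, 6.88 and 30.5 CPM against 2.62, 2.14, 1.48 and 7.52 CPM. It fell by 2.69 (SE 0.53, adjusted p = 0.00199), although DMEM/F12 replicate 3 lay below incubation medium replicate 4, and without the latter the fold change was -3.39 (adjusted p = 0.000872). COL1A2, the partner chain, was at 1.58, 2.32, 2.78 and 1.44 CPM against 4.65, 6.27, 3.82 and 2.96 CPM; it was not called (1.12, adjusted p = 0.076) but was called with the replicate block (adjusted p = 0.0096). COL3A1 (-0.70, adjusted p = 0.42), ACTA2 (0.24, adjusted p = 0.68) and CNN1 (-0.04, adjusted p = 0.97) were not called and lay under 2 CPM in every spheroid library. MGP, matrix Gla protein, fell by 2.37 (adjusted p = 0.00152) from 77.0, 13.8, 33.2 and 18.2 CPM to 7.40, 7.07, 7.51 and 5.37 CPM. The first of these libraries weighed on it, and without DMEM/F12 replicate 1 the fold change was -1.66 (adjusted p = 0.000786). PDGFRA, a stromal growth factor receptor, was at or under 3 counts in each incubation medium library and at least 4.6-fold lower than its DMEM/F12 mean of 1.76 CPM.

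In bulk libraries, fewer cells of a type and less RNA per cell cannot be told apart. Markers of other cell types were few. Among mesothelial markers all 3 tested members (WT1, UPK1B and PDPN) were called lower with overlapping groups, with a summed level of 386 to 517 CPM in DMEM/F12 and 229 to 306 CPM in incubation medium. The mesothelial count fell to 1 without any of DMEM/F12 replicates 2 and 4 or incubation medium replicates 1 to 3. Of 5 endothelial markers 1 was called lower and 0 higher (median 0.02, and -0.08 with library totals). That marker was CDH5, VE-cadherin, which fell by 1.33 (SE 0.29, adjusted p = 0.00387) from 124, 71.9, 176 and 60.8 CPM to 51.3, 33.8, 50.2 and 36.8 CPM, while VWF, TEK and ERG did not pass the filter on low counts. Of 8 leukocyte markers 1 was called higher and 1 lower (median -0.77), near the shares of all genes (12.7% and 12.3%). With the replicate block 1 was higher and 4 lower, where 16.6% and 16.2% of all genes were. Without incubation medium replicate 2 the total was 5. Fold changes were negative for 5 markers and positive for 3. CORO1A, the marker called lower, had fold changes of -1.93 to -1.66 over the alternative settings (adjusted p at most 0.00022). PTPRC, the common leukocyte antigen, stood at 2.43, 3.37, 2.91 and 1.44 CPM against 1.31, 2.14, 1.11 and 0.269 CPM (-1.06, adjusted p = 0.0678; -1.07, adjusted p = 0.0312 with the block). CD79A, a B cell receptor chain, was at 409 to 474 CPM against 497 to 598 CPM and rose by 0.30 (adjusted p = 0.0132), while CD3D, CD3E and CD8A did not pass the filter. Erythroid markers gave 0 tested genes. What part the stromal, mesothelial, endothelial and leukocyte markers have in the other differences was not tested.

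Of 12 proteases that cut the extracellular matrix, 6 were called lower in incubation medium and 1, PLAT, higher (median -0.74). MMP7, matrilysin, an epithelial metalloproteinase, was the most abundant of the list. It stood at 3621, 3799, 5311 and 2607 CPM in DMEM/F12 and at 784, 983, 1794 and 781 CPM in incubation medium, a fall of 1.82 (SE 0.26, adjusted p = 0.000188) with no overlap, and fresh cells held 6.98 ± 1.30 CPM (SD, n = 4). MMP2, gelatinase A, fell by 1.35 (adjusted p = 0.00102) from 20.8, 24.0, 22.9 and 12.5 CPM to 6.32, 9.08, 10.6 and 5.51 CPM. MMP9, gelatinase B, was at 154, 164, 136 and 49.2 CPM against 51.7, 114, 73.8 and 27.7 CPM; it was not called (-0.91, adjusted p = 0.0878), but each pair of same-numbered libraries had the lower value in incubation medium and the replicate block called it (adjusted p = 0.00017).

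Protease inhibitors, not only those of matrix proteases, moved apart from each other. Of 14 tested, 5 were called lower and 1 higher (median -0.19), against 12.3% and 12.7% of all genes. TIMP2, an inhibitor of metalloproteinases, stood at 858, 697, 673 and 625 CPM against 273, 227, 175 and 227 CPM and fell by 1.66 (SE 0.15, adjusted p = 5.19e-06). TIMP1, its relative, fell by 1.12 (adjusted p = 0.0004) from 1135, 665, 613 and 700 CPM to 418, 325, 302 and 388 CPM. SPINT2, an inhibitor of membrane serine proteases and the most abundant of the list, was not called (-0.09, adjusted p = 0.628). Of 9 basement membrane and integrin genes 3 were called lower and 0 higher (median -0.23), among them ITGAV, the integrin alpha V chain (-0.74, adjusted p = 3.23e-05), and ITGB1, the integrin beta 1 chain (-0.44, adjusted p = 0.0115).

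Of 14 genes of epithelial cell contacts, 8 were called lower and 2 higher (median -0.54), against 12.3% and 12.7% of all genes. CLDN4, a tight junction claudin, stood at 2436, 2447, 3438 and 2560 CPM against 1071, 893, 1010 and 1072 CPM and fell by 1.43 (SE 0.14, adjusted p = 1.04e-05). CDH1, E-cadherin, fell by 1.00 (SE 0.09, adjusted p = 3.97e-06) from 1142, 1208, 1352 and 1144 CPM to 609, 674, 588 and 552 CPM. In both genes the groups lay far apart, with the DMEM/F12 libraries high. CLDN1, another claudin, fell by 1.19 (adjusted p = 0.00842), and CLDN7 was not called (-0.14, adjusted p = 0.324). OCLN, occludin, fell by 0.98 (adjusted p = 0.000154), and GJA1, the gap junction protein connexin 43, rose by 0.93 (adjusted p = 0.00201). EPCAM, the epithelial cell adhesion molecule, was at 617, 513, 804 and 579 CPM against 692, 596, 929 and 642 CPM, which was not called (0.19, adjusted p = 0.417; adjusted p = 0.0387 with the block in only the 8 spheroid libraries), and fresh cells held 904 ± 112 CPM (SD, n = 4).

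Keratins and mucosal genes were mixed. KRT15, a keratin of basal and progenitor epithelial cells, stood at 444, 332, 265 and 300 CPM against 106, 82.0, 82.2 and 119 CPM and fell by 1.79 (SE 0.18, adjusted p = 1.21e-05). KRT18, a keratin of simple epithelium, rose by 0.76 (adjusted p = 0.00201) from 382, 503, 394 and 422 CPM to 594, 600, 696 and 986 CPM. In all, 1 of 4 keratin and squamous genes was called higher and 2 lower. Of 7 mucin and mucosal genes 3 were called higher and 2 lower. TFF3, a trefoil peptide of mucus, stood at 10.7, 14.9, 17.3 and 12 CPM against 39.6, 66.1, 57.2 and 45.3 CPM and rose by 1.92 (SE 0.25, adjusted p = 0.000107). AGR2, a disulfide isomerase needed for mucin folding, rose by 1.68 (adjusted p = 0.000661) from 47, 44.5, 18.8 and 38.8 CPM to 111, 105, 87.3 and 174 CPM. MUC20, a membrane mucin, rose by 0.86 (adjusted p = 5.47e-05), and MUC1, the most abundant mucin tested, was not called (-0.20, adjusted p = 0.102) but was with library totals (adjusted p = 0.0267) and with the block in only the 8 spheroid libraries (adjusted p = 0.0428).

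Of 15 targets of the actin-sensitive factors SRF and YAP, 8 were called lower in incubation medium and 0 higher (median -0.55). MYL9, a myosin light chain, stood at 74.0, 59.0, 86.9 and 62.8 CPM against 29.0, 26.2, 26.1 and 23.1 CPM and fell by 1.44 (SE 0.16, adjusted p = 2.87e-05). AXL, a receptor tyrosine kinase, fell by 1.04 (adjusted p = 0.000216), and CCN1, a matrix-associated signalling protein, fell by 0.87 (adjusted p = 0.00169) from 438 to 526 CPM to 237 to 290 CPM. ACTG1, cytoplasmic actin, was not called (-0.27, adjusted p = 0.0614), but was called without incubation medium replicate 4 (adjusted p = 0.0408), with library totals, upper quartile scaling and DESeq2, and in only the 8 spheroid libraries. Stromal cells also express contractile genes, and their markers moved in the same direction (summed 1601 to 1895 CPM against 539 to 907 CPM). The actin-binding gene TAGLN, given above, made up most of that sum in each DMEM/F12 library and a large part of it in incubation medium. What part stromal cells have in this difference was not tested.

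Of 15 genes that respond to TGF-beta and BMP, 7 were called lower and 0 higher (median -0.41), against 12.3% and 12.7% of all genes. PMEPA1, a feedback inhibitor of TGF-beta signalling, stood at 107, 50.3, 123 and 74.2 CPM against 32.7, 15.1, 26.1 and 23.5 CPM and fell by 1.85 (SE 0.28, adjusted p = 0.000362). ID3, a BMP target that blocks helix-loop-helix factors, fell by 0.94 (adjusted p = 0.00426) from 229, 257, 371 and 322 CPM to 90.9, 167, 213 and 144 CPM. BAMBI, a decoy receptor, fell by 0.71 (adjusted p = 0.00719).

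Of 12 Notch genes 6 were called lower and 0 higher (median -0.45), against 12.3% and 12.7% of all genes. Notch receptors are cleaved on contact with ligands of neighbouring cells, and fringe enzymes such as LFNG tune that contact. LFNG stood at 18.5, 15.9, 19.6 and 13.2 CPM against 6.92, 5.47, 6.77 and 4.70 CPM and fell by 1.49 (SE 0.18, adjusted p = 5.38e-05). JAG1, a ligand, fell by 0.82 (adjusted p = 0.000174) from 75.1, 77.8, 83.6 and 74.1 CPM to 52.0, 40.7, 40.4 and 42.3 CPM. NOTCH3 fell by 0.95 (adjusted p = 0.000885) and NOTCH2 by 0.44 (adjusted p = 0.00264), and the targets HES1 and HEY1 were not called. Of 16 Wnt genes 2 were called higher and 4 lower (median -0.23), where 12.7% of all genes were called higher and 12.3% lower. WNT5A, a ligand, rose by 0.75 (adjusted p = 0.00297), and RNF43, a ligase that removes Wnt receptors, rose by 0.93 (adjusted p = 0.00216). TCF7, a nuclear effector, fell by 0.63 (adjusted p = 0.00925).

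Of 17 growth factor ligands and receptors 6 were called lower and 1, FGFBP1, higher (median -0.24). ERBB3, a receptor for neuregulins, separated cleanly. It stood at 243, 230, 260 and 246 CPM against 94.0, 82.9, 80.2 and 83.4 CPM and fell by 1.52 (SE 0.08, adjusted p = 7.4e-08). FGFR4, a fibroblast growth factor receptor, fell by 2.26 (adjusted p = 0.000883) from 6.57, 9.41, 18 and 9.97 CPM to 1.31, 1.87, 4.68 and 1.21 CPM; without incubation medium replicate 3 the fold change was -2.89 (adjusted p = 0.000136). EGFR and ERBB2 were not called. In the insulin and IGF list 2 of 13 were called higher and 4 lower (median -0.27), against 12.7% and 12.3% of all genes. PIK3IP1, an inhibitor of PI3 kinase, fell by 1.68 (SE 0.20, adjusted p = 5.93e-05) from 51.0, 47, 37.8 and 47.7 CPM to 16.1, 10.3, 12.7 and 18.1 CPM, and IGF1R, the IGF receptor, fell by 0.86 (adjusted p = 0.000118). The binding proteins IGFBP2 and IGFBP5 rose. IGFBP2 stood at 60.8, 52.5, 35.5 and 69.8 CPM against 97.2, 132, 102 and 365 CPM (1.67, adjusted p = 0.00469; 1.01, adjusted p = 0.00374 without incubation medium replicate 4). TXNIP, which limits glucose uptake, was at 682, 622, 379 and 610 CPM against 519, 371, 310 and 390 CPM (-0.53, adjusted p = 0.0529) and was called with the replicate block (-0.52, adjusted p = 0.0104).

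Genes of the amino acid response were higher in incubation medium. ATF4 is translated when amino acids run short or the endoplasmic reticulum is stressed, and it induces genes of serine synthesis, amino acid uptake and one-carbon metabolism. Of 19 tested, 14 were called higher and 0 lower (median 0.89), where 12.7% of all genes were called higher. PSAT1, a serine synthesis enzyme, stood at 66.2, 74.2, 119 and 82.0 CPM against 449, 424, 366 and 361 CPM and rose by 2.23 (SE 0.17, adjusted p = 1.35e-06). ATF5, a relative of ATF4 induced with it, rose by 2.21 (SE 0.19, adjusted p = 4.84e-06) from 7.66, 11.3, 8.87 and 10.6 CPM to 53.3, 41.9, 28.8 and 53.5 CPM. In both genes the groups lay far apart. ALDH1L2, a mitochondrial folate enzyme, rose by 2.01 (SE 0.21, adjusted p = 1.6e-05) from 2.92, 2.90, 3.31 and 2.64 CPM to 12.3, 13.6, 11.1 and 10.7 CPM. SLC1A5, a glutamine transporter, rose by 1.58 (adjusted p = 2.94e-06), and the stress factor DDIT3 (CHOP) by 1.06 (adjusted p = 0.000621). ATF4 itself was at 279, 376, 380 and 335 CPM against 470, 487, 439 and 432 CPM with no overlap, and it was not called (0.42, adjusted p = 0.0515) but was called with the replicate block (0.42, adjusted p = 0.0137). CEBPB, CTH and SLC38A2 were not called.

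Of 13 genes of the unfolded protein response of the endoplasmic reticulum 8 were called higher and 0 lower (median 0.39). HSPA5, the chaperone BiP, stood at 290, 291, 316 and 297 CPM against 552, 543, 505 and 447 CPM and rose by 0.78 (SE 0.15, adjusted p = 0.00202), where fresh cells held 3277 ± 896 CPM (SD, n = 4). SYVN1, a ligase that clears misfolded proteins, rose by 0.35 (adjusted p = 0.00488), and DNAJB9, a co-chaperone, by 0.47 (adjusted p = 0.0109). The count of 8 fell to 4 without DMEM/F12 replicate 2 or 4 or incubation medium replicate 1, and to 5 without DMEM/F12 replicate 3 or incubation medium replicate 3 or with library totals.

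All 20 cytosolic ribosomal protein genes on the list were called higher (20 of 20, median 0.47). Their fold changes ran from 0.37 to 0.70, with no overlap between the groups for any of them. Over all tested genes 12.7% were called higher and 26.9% did not overlap. Calls were more common among abundant genes, at 43.4% in either direction for those at 100 CPM or more. RPS18, of the small subunit, stood at 1451, 1698, 1792 and 1723 CPM against 2762, 2865, 2510 and 2679 CPM and rose by 0.70 (SE 0.08, adjusted p = 4.29e-05). RPL30, of the large subunit, rose by 0.59 (SE 0.07, adjusted p = 6.72e-05) from 1634, 1747, 2008 and 1799 CPM to 2715, 2744, 2641 and 2706 CPM. The median of the list was 0.37 with library totals in place of TMM. Of 19 nuclear genes of the respiratory chain, 8 were called higher and 0 lower (median 0.26), and with the replicate block 16 were called higher and 0 lower. COX5A, a cytochrome c oxidase subunit, stood at 304, 291, 360 and 285 CPM against 392, 416, 455 and 373 CPM and rose by 0.40 (SE 0.10, adjusted p = 0.00991). ATP5F1A, an ATP synthase subunit, was not called (0.21, adjusted p = 0.0788) but was with the block (0.20, adjusted p = 0.0399). With library totals 1 member was called, and the count of 8 fell to 4 without DMEM/F12 replicate 4 and to 5 without any other library except incubation medium replicate 4.

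The 4 incubation medium libraries differed among themselves in glycolytic and hypoxia-response genes. Glycolysis turns glucose into pyruvate and lactate, and the hypoxia-inducible factor raises its enzymes when oxygen is low. Of 24 tested, 12 were called higher and 0 lower (median 0.77), but the groups overlapped for 8 of these 12. The summed level of the list was 6094, 7225, 7733 and 7004 CPM in DMEM/F12 and 6590, 9818, 9089 and 15935 CPM in incubation medium, so that replicate 1 lay within the DMEM/F12 range and replicate 4 far above every other library. PGK1, phosphoglycerate kinase, stood at 317, 356, 413 and 343 CPM against 437, 636, 628 and 1034 CPM and rose by 0.94 (SE 0.19, adjusted p = 0.00261) with no overlap. GAPDH, the enzyme before it, was at 1911, 2345, 2394 and 2301 CPM against 2359, 3277, 3130 and 5778 CPM, a rise of 0.70 (SE 0.20, adjusted p = 0.0185) that was lost without DMEM/F12 replicate 1 (adjusted p = 0.0519). HK2, hexokinase 2, rose by 1.54 (adjusted p = 0.00906) from 8.51, 14.6, 18.7 and 10.8 CPM to 14.2, 37.8, 32.6 and 69.0 CPM. SLC16A3, the lactate exporter MCT4, showed the pattern most strongly, at 17.5, 24.2, 34.4 and 23.1 CPM against 14.4, 56.7, 43.9 and 187 CPM. Its rise of 1.61 (adjusted p = 0.0374) became 0.63 (adjusted p = 0.195) without incubation medium replicate 4, and it was also lost without DMEM/F12 replicate 1, 2 or 4 (adjusted p = 0.0808 to 0.0902) and in a fit of only the 8 spheroid libraries (adjusted p = 0.0745). Without incubation medium replicate 4 the list had 9 called members and a median of 0.42. ENO1 (0.22, adjusted p = 0.38), ALDOA (0.04, adjusted p = 0.90) and the glucose transporter SLC2A1 (0.19, adjusted p = 0.56) were not called.

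**Figure D5:**
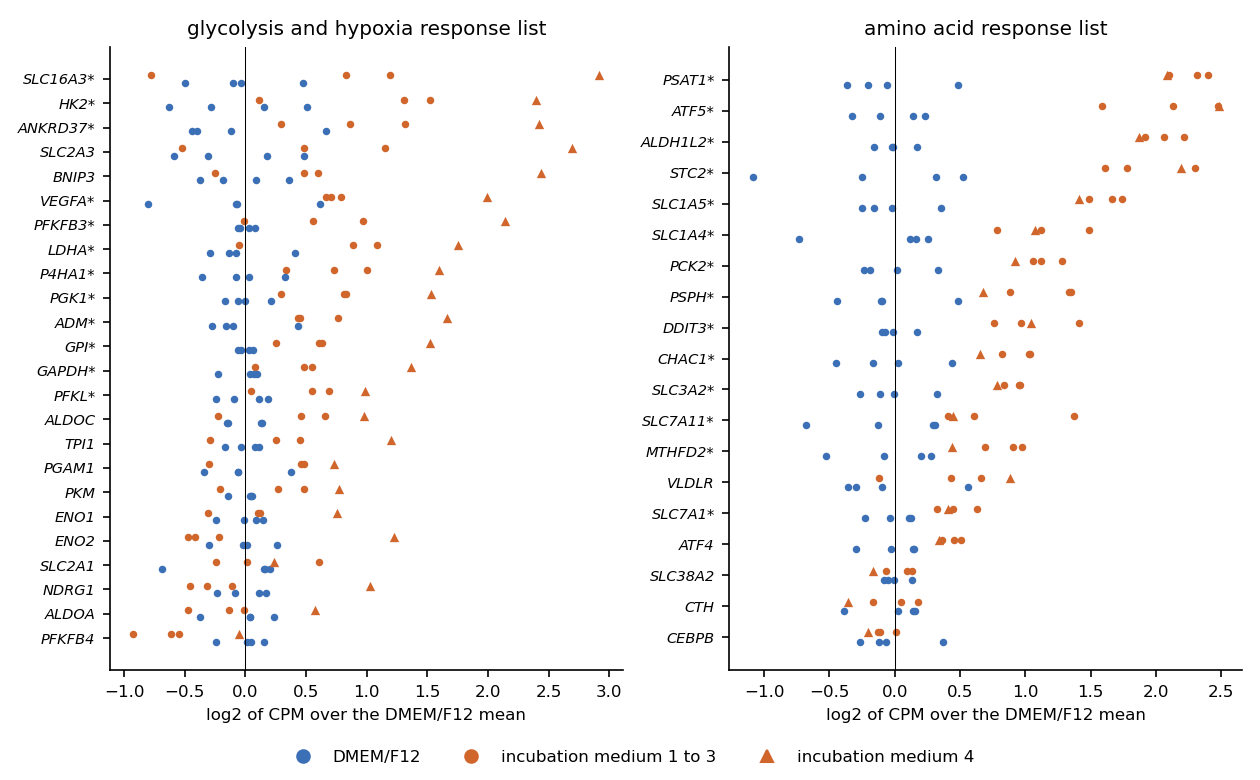
Log2 of each library's CPM over the DMEM/F12 mean for the 24 glycolysis and hypoxia genes (left) and the 19 amino acid response genes (right); blue points are DMEM/F12 libraries, orange circles incubation medium replicates 1 to 3, orange triangles incubation medium replicate 4, and an asterisk marks a called gene. Replicate 4 stands apart above the other incubation medium libraries in the glycolysis list (summed 15935 CPM) and does not in the amino acid list.

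Genes of fatty acid synthesis and of fatty acid oxidation were counted apart. Of 11 genes of fatty acid synthesis and activation 7 were called higher and 0 lower (median 0.48). ACSL5, an acyl-CoA synthetase, stood at 36.4, 38.9, 35.7 and 35.1 CPM against 58.8, 83.7, 74.0 and 62.2 CPM and rose by 0.93 (SE 0.10, adjusted p = 3.14e-05). AGPAT2, an enzyme of triglyceride synthesis, rose by 0.62 (adjusted p = 0.00083) from 99.5, 109, 129 and 124 CPM to 170, 163, 181 and 196 CPM, and FADS1, a desaturase, by 0.68 (adjusted p = 0.00576). Of 14 fatty acid oxidation and PPAR target genes 4 were called higher and 1 lower (median 0.13), against 12.7% and 12.3% of all genes. FABP3, a fatty acid carrier, stood at 11.9, 12.3, 13.8 and 15.5 CPM against 50.2, 61.0, 72.9 and 54.4 CPM and rose by 2.16 (SE 0.15, adjusted p = 1.01e-06). ANGPTL4, a secreted inhibitor of lipoprotein lipase, rose by 2.55 (SE 0.41, adjusted p = 0.000512) from 10.9, 11.6, 13.5 and 8.88 CPM to 34.6, 46.1, 37.0 and 146 CPM, and by 1.80 (adjusted p = 2.38e-05) without incubation medium replicate 4. PDK4, a pyruvate dehydrogenase kinase, went the other way. It fell by 2.46 (adjusted p = 0.00335) from 28.0, 10.3, 9.66 and 11.8 CPM to 7.16, 0.934, 0.862 and 1.61 CPM, and without incubation medium replicate 1 its fold change was -3.71 (adjusted p = 0.000194).

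Of 19 cholesterol synthesis and uptake genes 4 were called lower and 0 higher (median -0.28), where 12.3% of all genes were called lower. With the replicate block 10 were lower and 1 higher, against 16.2% and 16.6% of all genes. HMGCS1, the synthase of the mevalonate pathway, stood at 165, 146, 192 and 131 CPM against 114, 107, 111 and 96.7 CPM and fell by 0.56 (SE 0.17, adjusted p = 0.0246). The count of 4 became 0 without incubation medium replicate 2, 1 without incubation medium replicate 4 and 9 with library totals, and the HMGCS1 call was lost without DMEM/F12 replicate 1 or 3 or incubation medium replicate 2 or 4 (adjusted p = 0.053 to 0.0751). ABCG1, a cholesterol exporter induced by LXR receptors, stood at 12.7, 15.9, 6.35 and 16.1 CPM against 42.4, 39.0, 58.7 and 51.6 CPM and rose by 1.90 (SE 0.22, adjusted p = 4.74e-05). ABCA1, its partner, rose by 1.17 (adjusted p = 0.0113), and these were the 2 of 7 members of the export list that were called (median 0.06, and -0.03 with library totals).

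Among zinc and iron genes 3 of 10 were called higher and 3 lower (median 0.09, and -0.01 with library totals). Metallothioneins bind zinc in the cell, SLC30A1 exports it and SLC39A10 imports it. MT2A, a metallothionein, stood at 1833, 1003, 760 and 1525 CPM against 453, 265, 225 and 536 CPM and fell by 1.79 (SE 0.29, adjusted p = 0.00058). SLC30A1 fell by 2.25 (SE 0.17, adjusted p = 1.35e-06) from 27.4, 21.7, 28.1 and 23.7 CPM to 4.77, 4.00, 5.42 and 6.99 CPM. SLC39A10 rose by 1.53 (SE 0.12, adjusted p = 2.57e-06) from 26.3, 29.3, 33.1 and 28.6 CPM to 73.7, 97.8, 96.2 and 71.7 CPM. The exporter and the importer each separated without overlap. TFRC, the transferrin receptor that brings in iron, rose by 1.03 (adjusted p = 0.00212), and the ferritin chain FTL, at 5801 to 6648 CPM against 6100 to 6834 CPM, was not called (0.10, adjusted p = 0.595).

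Of 15 heat shock genes 4 were called higher, 3 lower and 8 not called (median 0.01, and -0.08 with library totals). The 3 that fell were small heat shock proteins. HSPB1 stood at 1332, 1503, 1681 and 1314 CPM against 401, 499, 563 and 569 CPM and fell by 1.52 (SE 0.15, adjusted p = 1.46e-05), HSPB8 fell by 1.29 (adjusted p = 0.00192) and CRYAB by 1.00 (adjusted p = 0.000573). Among larger chaperones, HSP90AB1 rose by 0.71 (SE 0.08, adjusted p = 2.87e-05) from 1214, 1401, 1279 and 1300 CPM to 2144, 2158, 1902 and 2293 CPM, and the mitochondrial chaperone HSPD1 rose by 0.79 (adjusted p = 1.87e-05). In the NRF2 and glutathione list 3 of 12 were called higher and 0 lower (median 0.05, and -0.04 with library totals). Over all genes 12.7% were called higher and 12.3% lower. GCLC, which limits glutathione synthesis, rose by 1.59 (SE 0.15, adjusted p = 6.84e-06) from 15.9, 18.7, 21.6 and 13.6 CPM to 52.3, 49.3, 61.9 and 46.2 CPM, and TKT, of the pentose phosphate pathway, by 1.10 (adjusted p = 2.94e-06). The classical NRF2 targets NQO1 (0.08, adjusted p = 0.781) and HMOX1 (-0.08, adjusted p = 0.809) were not called.

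Immediate early genes and feedback regulators of MAP kinase signalling had 9 of 22 members called lower, 1 higher and 12 not called (median -0.41). SPRY2, a feedback inhibitor of receptor kinases, stood at 39.5, 48.9, 61.7 and 36.7 CPM against 15, 18.7, 18.7 and 18.3 CPM and fell by 1.40 (SE 0.22, adjusted p = 0.00044). KLF6, a zinc finger factor, fell by 1.14 (SE 0.15, adjusted p = 9.21e-05) from 391, 388, 559 and 417 CPM to 203, 205, 224 and 162 CPM, and FOSL2, an AP-1 subunit, by 0.92 (adjusted p = 0.000168). FOS was the 1 member called higher. It stood at 109, 110, 68.3 and 94.0 CPM against 157, 166, 172 and 151 CPM (0.76, adjusted p = 0.0021), where fresh cells held 12074 ± 2326 CPM (SD, n = 4). Glucocorticoid-responsive genes were lower in 4 of 10 cases and higher in 0 (median -0.42). SGK1, a kinase induced by corticosteroids, stood at 93.4, 88.2, 59.9 and 86.8 CPM against 25.9, 34.7, 31.5 and 25.0 CPM and fell by 1.49 (SE 0.20, adjusted p = 0.000109). FKBP5, a co-chaperone of the glucocorticoid receptor, fell by 0.82 (adjusted p = 0.00815), and TSC22D3 was not called. NFKBIA, also a brake on NF-kappaB, was at 266, 463, 404 and 318 CPM against 180, 336, 257 and 205 CPM (-0.57, adjusted p = 0.0518; -0.58, adjusted p = 0.00181 with the replicate block).

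Of 22 cytokine, chemokine and NF-kappaB genes 3 were called higher and 3 lower (median -0.26), shares near those of all genes (12.7% and 12.3%). CXCL8, the neutrophil attractant interleukin 8, stood at 186, 216, 119 and 153 CPM against 694, 904, 740 and 500 CPM and rose by 2.07 (SE 0.40, adjusted p = 0.00172). CXCL2, a related chemokine, rose by 1.17 (adjusted p = 0.0016) from 339, 383, 216 and 263 CPM to 697, 805, 641 and 556 CPM. CSF2, the growth factor GM-CSF, fell by 2.65 on the log2 scale (SE 0.29, adjusted p = 2.93e-05) from 34.4, 43.2, 82.8 and 33.6 CPM to 6.20, 7.47, 10.3 and 6.72 CPM. CCL2, a monocyte attractant, fell by 1.87 (SE 0.37, adjusted p = 0.00227) from 158, 282, 508 and 161 CPM to 37.7, 117, 83.0 and 66.4 CPM. Neither IL6 nor TNF was called. Of 16 interferon-response genes 2 were called higher and 2 lower (median -0.03), again near the shares of all genes, and the total was 2 without DMEM/F12 replicate 2 or 4. IRF1, a transcription factor, rose by 0.76 (adjusted p = 0.000524), and IFI6, an antiviral protein and the most abundant of the list, was at 1045, 842, 444 and 1491 CPM against 417, 350, 294 and 954 CPM (-0.92, adjusted p = 0.0846; -0.95, adjusted p = 0.00057 with the replicate block). Of 6 antigen presentation genes 4 were called higher and 0 lower (median 0.58). PSMB9, an immunoproteasome subunit, stood at 12.5, 35.8, 15.7 and 23.2 CPM against 43.2, 93.2, 81.4 and 62.1 CPM and rose by 1.67 (SE 0.29, adjusted p = 0.00094), and CD74, the invariant chain, rose by 0.37 (adjusted p = 0.00358).

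Of 12 antimicrobial and acute phase genes 1, PGLYRP1, was called higher and 0 lower (median 0.22), against 12.7% and 12.3% of all genes. With the replicate block 5 were higher and 0 lower, against 16.6% and 16.2%. PGLYRP1 lay under 2 CPM in each spheroid library, and the count became 0 without DMEM/F12 replicate 4 or incubation medium replicate 2, 0 with DESeq2 or only the 8 spheroid libraries, and 2 without DMEM/F12 replicate 2 or 3. SAA3, a serum amyloid, was at 469, 472, 164 and 548 CPM against 958, 696, 503 and 693 CPM (0.78, adjusted p = 0.114; 0.90, adjusted p = 0.00172 with the block). Besides PTGIS, AKR1C3, an aldo-keto reductase that acts on prostaglandins and steroids, was called among 11 prostaglandin genes (2 higher, 0 lower, median 0.27; 5 higher with the block and 4 without incubation medium replicate 1). AKR1C3 stood at 17.2, 13.5, 11 and 5.76 CPM against 63.1, 37.1, 45.3 and 29.7 CPM and rose by 1.89 (SE 0.29, adjusted p = 0.000321). PTGS2, the inducible cyclooxygenase, was not called (-0.70, adjusted p = 0.28), and PTGES3 was not called (0.27, adjusted p = 0.213) but was with the block (0.27, adjusted p = 0.0433). Of 14 ion and water transport genes 2 were called higher and 3 lower (median -0.08), against 12.7% and 12.3% of all genes. Beside CA12, ATP1B1, a sodium pump subunit, rose by 0.66 (adjusted p = 0.000447), and AQP9, an aquaglyceroporin, fell by 1.37 (adjusted p = 0.000418). CFTR, the chloride channel, was not called (-0.02, adjusted p = 0.95).

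Of 17 mitosis genes 7 were called higher and 0 lower (median 0.39). TOP2A, a topoisomerase, stood at 48.8, 57.8, 46.7 and 49.6 CPM against 66.7, 75.0, 88.7 and 76.8 CPM and rose by 0.60 (SE 0.12, adjusted p = 0.00284), KIF20A, a mitotic kinesin, by 0.61 (adjusted p = 0.00156) and BUB1B, a checkpoint kinase, by 0.70 (adjusted p = 0.00167). The count was 3 without incubation medium replicate 2, 4 without incubation medium replicate 3 and 3 with library totals. Of 17 DNA replication genes 1 was called higher and 0 lower (median 0.18), against 12.7% and 12.3% of all genes. With the replicate block 2 were higher and 1 lower, against 16.6% and 16.2%. The gene called without the block was TYMS, thymidylate synthase, which rose by 1.09 (adjusted p = 0.00164) from 8.27, 8.71, 7.28 and 6.0 CPM to 15.6, 15.3, 20.6 and 12.8 CPM. MCM7, a helicase subunit, was called with the block (0.32, adjusted p = 0.0161) and not in the main fit (0.32, adjusted p = 0.0684). The total was 2 with library totals and without any of DMEM/F12 replicates 1 and 3 or incubation medium replicates 3 and 4. No tested row carried the symbol MKI67.

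Genes of the p53 response were mixed, with 4 of 11 called higher and 3 lower (median 0.06, and -0.03 with library totals; 4 called in all without DMEM/F12 replicate 1). SESN2, also a target of ATF4, stood at 18, 19.4, 20.1 and 19.0 CPM against 37.2, 38.6, 34.8 and 33.9 CPM and rose by 0.92 (SE 0.10, adjusted p = 1.95e-05). ZMAT3, an RNA-binding target of p53, rose by 0.93 (adjusted p = 0.00124), TP53INP1 fell by 0.77 (adjusted p = 0.00193), and CDKN1A was not called. Of 15 apoptosis genes 2 were called higher and 3 lower (median -0.12), where 12.7% of all genes were called higher and 12.3% lower. The total was 3 without DMEM/F12 replicate 2 or 3 or with no filter on low counts. MCL1, a survival protein, fell by 0.40 (adjusted p = 0.00707). Lysosomal genes were lower in 7 of 20 cases and higher in 2 (median -0.23). PSAP, the precursor of the saposins, stood at 1404, 1359, 1598 and 1346 CPM against 797, 788, 867 and 882 CPM and fell by 0.78 (SE 0.09, adjusted p = 4.16e-05), and CTSS, a cathepsin, rose by 0.85 (adjusted p = 0.000649).

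Markers of both epithelial cell types of the oviduct were measured. Of 12 multiciliated cell markers 0 were called by edgeR in either direction (median 0.01, and -0.09 with library totals), 0 with the replicate block, 0 with DESeq2, 1 without DMEM/F12 replicate 1 or 3, and 3 with the block in a fit of only the 8 spheroid libraries. At an unadjusted p under 0.05 the count was 1. FOXJ1, the master regulator of motile cilia, stood at 133, 91.2, 54.8 and 74.8 CPM against 82.1, 65.0, 51.2 and 71.6 CPM (-0.39, SE 0.21, adjusted p = 0.192), lower in incubation medium in each same-numbered pair, where fresh cells held 453 ± 13.6 CPM (SD, n = 4). It was called without DMEM/F12 replicate 3 (-0.56, adjusted p = 0.0369) and with the block in only the 8 spheroid libraries (-0.35, adjusted p = 0.0143). The summed level of the ciliated markers ran from 202 to 475 CPM in DMEM/F12 and from 202 to 356 CPM in incubation medium, and replicate 3 was the lowest in both media. Of 10 genes of the multiciliogenesis programme 1 was called higher, 1 lower and 8 not called (median 0.18). These counts are near the shares of all genes (12.7% and 12.3%). E2F5 rose (0.60, adjusted p = 0.000755) and HES6 fell (-0.48, adjusted p = 0.002).

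OVGP1 was at 696, 196, 186 and 522 CPM in DMEM/F12 and at 734, 191, 196 and 762 CPM in incubation medium, which was not called (0.23, SE 0.49, adjusted p = 0.77), and fresh cells held 22241 ± 4595 CPM (SD, n = 4). Replicates 1 and 4 were high and replicates 2 and 3 low in both media. Of 7 secretory markers 2 were called higher and 0 lower (median 0.23), against 12.7% and 12.3% of all genes. With the replicate block 3 were higher and 1 lower, against 16.6% and 16.2%. SPDEF, a transcription factor of secretory cells, stood at 10.6, 8.25, 6.35 and 6.72 CPM against 32.6, 28.7, 28.9 and 22.3 CPM and rose by 1.81 (SE 0.15, adjusted p = 3.3e-06). LTF, lactoferrin, an iron-binding protein of secretions, rose by 1.31 (SE 0.23, adjusted p = 0.000942) from 34.3, 34.8, 12.4 and 32.4 CPM to 63.6, 85.8, 60.3 and 73.2 CPM. PIGR, the receptor that carries immunoglobulin A, was at 30.7, 6.74, 3.18 and 7.80 CPM against 91.6, 19.2, 18.7 and 14.8 CPM (1.58, adjusted p = 0.0975) and was called with the block (adjusted p = 0.00014), as was the complement component C3 (-0.57, adjusted p = 0.275; adjusted p = 0.015 with the block).

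ESR1, oestrogen receptor alpha, stood at 200, 177, 150 and 207 CPM against 326, 256, 253 and 253 CPM and rose by 0.57 (SE 0.11, adjusted p = 0.00252), where fresh cells held 632 ± 49.9 CPM (SD, n = 4). PGR, the progesterone receptor, was at 26.9, 14.4, 11.6 and 26.3 CPM against 27.7, 16.2, 18.1 and 26.5 CPM, which was not called (0.16, SE 0.28, adjusted p = 0.731). NCOA2, a coactivator of steroid receptors, fell by 0.76 (adjusted p = 0.000131). Of 13 lineage transcription factors 3 were called higher and 1 lower (median 0.27), against 12.7% and 12.3% of all genes. The total was 2 without DMEM/F12 replicate 2. ELF3, an epithelial ETS factor, rose by 0.59 (SE 0.13, adjusted p = 0.00425) from 385, 381, 433 and 368 CPM to 535, 511, 516 and 799 CPM. SOX9, a progenitor factor of many epithelia, fell by 1.29 (SE 0.25, adjusted p = 0.00172) from 102, 201, 276 and 188 CPM to 49.9, 81.0, 98.8 and 83.8 CPM. GATA3, another lineage factor, was at or under 3 counts in every DMEM/F12 library and at a mean of 1.51 CPM in incubation medium, at least 4.12-fold above the floor.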

How the data were processed

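Messenger RNA from 12 libraries was captured with oligo-dT, tagmented and amplified by PCR, per the labels' protocols. The authors deposited expected counts per gene, some of them fractional, and a CPM value beside each, per the file headers. The submitters' processing notes name fastp 0.24.0, STAR 2.7.11, SAMtools 1.22.1, featureCounts and Subread 2.1.1; the genome build is not given in the sources used here. The deposited CPM was not tested. Counts were rounded, 92 spike-in rows were set aside from 30553, and genes that passed edgeR's filterByExpr were tested with edgeR 4.0.16 (limma 3.58.1, R 4.3.3): TMM scaling, 1 quasi-likelihood fit over all 12 libraries with the group as the only term, and Benjamini-Hochberg adjustment over 14070 genes. The fit was tested on simulated data. DESeq2 1.42.0, other scalings and filters, and leaving out each library were alternatives. Floors of 3 counts cover counting error only.

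Same-numbered libraries of the 2 media deviated together from their group means (correlations 0.516, 0.421, 0.515 and 0.394), so the replicate number was used as a block in an alternative; the labels do not say what a number shares. Of 30461 gene rows, 17202 had no symbol. Symbols on more than 1 row were left out of the lists. The genes named, all with a symbol, are the 12 largest changes in each direction without overlap at a mean of at least 20 CPM, the 5 most abundant called genes in each direction, 10 fixed genes, and from each list the most abundant member and up to 3 called members of at least 5 CPM. Other list members were named after their values were seen. Members and lists were chosen with earlier results of these data known. Some list members are not reported here.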

Additional observations from a re-analysis of the deposited data

Results flagged for a closer look

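In 21 of 362 groups of 4 libraries looked at, 1 library lay far from the other 3 (5.8%, where chance gives about 5%, or 1 in 20). Of these, 6 were high values in incubation medium replicate 4: ANGPTL4 at 146 CPM, ELF3 at 799 CPM, IGFBP2 at 365 CPM, IGFBP5 at 37.1 CPM, TCF7 at 52.4 CPM and TMSB4X at 7779 CPM. DMEM/F12 replicate 3 stood high for ANXA2 at 4903 CPM, CLDN4 at 3438 CPM, KLF6 at 559 CPM and TXN at 2134 CPM, and low for LTF at 12.4 CPM. Incubation medium replicate 1 stood high for ESR1 at 326 CPM, JAG1 at 52.0 CPM, PDK4 at 7.16 CPM and TKT at 737 CPM, and low for BID at 29.9 CPM and SPRY2 at 15 CPM. DMEM/F12 replicate 1 stood high for PDK4 at 28.0 CPM and TIMP1 at 1135 CPM. DKK3 was low in incubation medium replicate 2, at 2.00 CPM, and CTNNB1 was high in incubation medium replicate 3, at 308 CPM.

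Rows for synthetic spike-in sequences, which no comparison used, held 23 to 35 counts in all per spheroid library.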

How the results depend on the processing

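The total of 3522 calls, 1791 higher and 1731 lower, became 1986 (1036 higher, 950 lower) at an adjusted p under 0.01, 766 (290 and 476) with a change of at least 2-fold, and 1344 (664 and 680) among genes with whole counts in every library, where fewer genes were tested. Leaving out 1 library gave 2795 to 3350 calls, 1447 to 1698 higher and 1348 to 1652 lower. With the replicate block 4613 genes were called, and it changed no call of a named gene other than those given in the report. With the block in only the 8 spheroid libraries 5230 genes were called (2657 higher, 2573 lower), and 15 named genes became called, among them FOXJ1, EPCAM, MUC1 and ACTG1. Leaving out 1 library also turned these into calls: IFI6, MCM7 and TXN without DMEM/F12 replicate 3 (adjusted p = 0.0274, 0.0387 and 0.0382), TXNIP without it or incubation medium replicate 1 (0.00842 and 0.0168), NFKBIA without DMEM/F12 replicate 1 or incubation medium replicate 2 (0.0237 and 0.014), PTPRC without DMEM/F12 replicate 4 or incubation medium replicate 2 (0.041 and 0.0268), and ATP5F1A, IFI6 and MCM7 without incubation medium replicate 4 (0.0471, 0.00526 and 0.0405). Of 181 named genes, 181 kept direction and call with RLE size factors, 175 with DESeq2 and 165 with library totals.

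The remaining reversals were in genes not called, with fold changes near 0. With library totals IER3 was -0.062, NPC2 -0.077 and PLK2 -0.088, and with upper quartile scaling NPC2 was -0.0021 and PLK2 -0.017. PLK2 was -0.0017 with a mean of at least 10 counts, -0.0069 with no filter, -0.0058 with thinned counts, -0.018 with the replicate block and -0.0099 with the block in only the 8 spheroid libraries. Leaving out 1 library gave NPC2 -0.022 to 0.058, OVGP1 -0.096 to 0.644, PGR -0.024 to 0.338, PLK2 -0.074 to 0.088, SLPI -0.191 to 0.529 and SPINT2 -0.181 to 0.025. The cause was not tested. Of genes under 5 CPM, 12.3% were called.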

Other observations

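Many strongly changed genes carried no symbol. ENSSSCG00025076872 rose from a mean of 40.8 to 257 CPM and ENSSSCG00025067912 from 13.3 to 83.6 CPM, both by 2.65 on the log2 scale. ENSSSCG00025047144 fell from 40.7 to 6.94 CPM and ENSSSCG00025066859 from 117 to 28.5 CPM. These 4 IDs were not matched to a gene name in the tables used here.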
